A study of Mus musculus with 12 samples.

Results

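The 9 osteoblast lineage genes Runx2, Sp7, Alpl, Ibsp, Spp1, Bglap, Pth1r, Phex and Dmp1 were followed across 4 preparations of mouse stromal cells. They were chosen by name, as transcription factors, an enzyme, a receptor and non-collagen matrix genes of bone, and all 9 were found among the 53819 entries of the count table. Of these, 8 had enough counts to be tested, and Bglap did not. All libraries came from wild-type (WT) mice, whose age is not stated in the sources used here, with 3 libraries in each group. Stromal cells grown out of hind-limb and pelvic marrow on a collagen I coat were used once passaged, either whole (the group BM nonsorted) or as the CD51+ Sca-1+ fraction that lacks CD31, CD45, Ly6C and F4/80, taken by a flow sorter (the group BM sorted). Cells freed by collagenase I from pieces of hind-limb bone, called bone-associated cells (BAC), were used whole (the group BAC nondepleted) or once magnetic beads had taken out cells carrying CD45, Ly6C or F4/80 (the group BAC depleted). The culture medium held serum but no ascorbic acid, and the cells were kept under hypoxia. All 4 groups are mixed or enriched cell populations and not clones, and whether animals were pooled is not given.

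Osteoblasts build bone from mesenchymal progenitors through ordered steps. Runx2, a runt-domain transcription factor, commits progenitors to the lineage, and Sp7 (osterix), a zinc-finger factor acting after Runx2, is needed to form osteoblasts. Alkaline phosphatase (Alpl) then frees phosphate by splitting pyrophosphate, acidic phosphoproteins such as bone sialoprotein (Ibsp) and osteopontin (Spp1) are laid into the matrix, and osteocalcin (Bglap) is made late. Cells that become buried in the matrix turn into osteocytes, which make Dmp1 and Phex, genes of phosphate control. The parathyroid hormone receptor (Pth1r) is carried by cells of the lineage and also by growth-plate chondrocytes. Osteopontin is made by macrophages and osteoclasts too.

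The sequence before a start site is shown for 4 of the genes: Runx2 itself, the late gene Bglap, and Ibsp and Spp1, members of 1 matrix gene cluster (in the order Dspp, Dmp1, Ibsp, Mepe, Spp1 in RefSeq) whose levels parted between the preparations. Each window runs from 250 bases before to 50 after a RefSeq start on GRCm38.p6, a build other than the GRCm39 of the counts, and is written 5′ to 3′ on the gene's strand. Capitals mark the core letters that RUNX factors are known to prefer, ACCACA or ACCGCA, on either strand (TGTGGT or TGCGGT on the other). The windows lie at chr17:44814578-44814877 (Runx2, minus strand), chr5:104434861-104435160 (Spp1, plus strand), chr5:104299037-104299336 (Ibsp, plus strand) and chr3:88384417-88384716 (Bglap, minus strand).
Runx2: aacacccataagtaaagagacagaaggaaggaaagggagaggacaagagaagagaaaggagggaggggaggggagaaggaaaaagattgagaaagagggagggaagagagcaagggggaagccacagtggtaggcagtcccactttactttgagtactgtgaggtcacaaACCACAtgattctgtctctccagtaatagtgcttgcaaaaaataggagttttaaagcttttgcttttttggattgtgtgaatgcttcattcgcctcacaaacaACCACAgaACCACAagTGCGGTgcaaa
Spp1: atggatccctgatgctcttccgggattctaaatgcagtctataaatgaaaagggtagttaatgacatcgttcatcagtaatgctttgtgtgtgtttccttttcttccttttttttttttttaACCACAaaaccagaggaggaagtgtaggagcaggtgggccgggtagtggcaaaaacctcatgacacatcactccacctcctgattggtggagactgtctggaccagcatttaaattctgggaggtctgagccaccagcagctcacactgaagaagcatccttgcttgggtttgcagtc
Ibsp: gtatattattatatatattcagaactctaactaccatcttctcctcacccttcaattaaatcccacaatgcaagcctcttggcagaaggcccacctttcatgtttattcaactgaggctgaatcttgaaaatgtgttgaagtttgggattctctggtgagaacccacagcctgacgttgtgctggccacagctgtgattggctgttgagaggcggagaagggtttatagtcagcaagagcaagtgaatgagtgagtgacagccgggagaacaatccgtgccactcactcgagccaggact
Bglap: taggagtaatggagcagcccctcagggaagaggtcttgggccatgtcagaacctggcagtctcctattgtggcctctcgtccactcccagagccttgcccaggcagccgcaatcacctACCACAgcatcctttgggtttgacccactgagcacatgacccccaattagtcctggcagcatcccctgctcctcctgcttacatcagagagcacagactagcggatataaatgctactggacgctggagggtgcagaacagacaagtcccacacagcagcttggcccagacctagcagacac
The Runx2 window held 3 copies of ACCACA, the first starting 80 bases before the start site, and 1 of ACCGCA. The Spp1 window shown held 1 copy of ACCACA starting 128 bases before the start site, and the other Spp1 window, not shown, held none. The Bglap window held 1 copy of ACCACA starting 132 bases before the start site. The Ibsp window held neither. Among all 32851 windows of this length, 16.8% held ACCACA and 6.45% held ACCGCA, so a copy is common and a match is a description only. RefSeq windows were found for 8 of the 9 genes (not Sp7), 13 windows in all, and 4 of these held a copy.

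Depth was even, at 27937709 to 32164725 counts per library. BAC depleted 1 stood apart from the other 11 libraries, with 43406 counts of the X-inactivation RNA Xist and 0 of the Y-linked gene Ddx3y, where the others held at most 16 counts of Xist. Mitochondrial transcripts took 1.82% to 2.62% of counts in BAC depleted and 1.08% to 1.36% elsewhere. The labels do not say that the libraries of a group came from separate animals or cultures, so p-values measure the spread between these libraries, which may be technical in part. Levels are CPM, counts scaled to a common library total with TMM factors, given by library or as mean ± SD over 3 libraries. In bulk RNA fewer cells of a type and less RNA per cell cannot be told apart.

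Set against each other per kilobase of exon, Spp1 had the highest mean of the 9 genes in all 4 groups. It stood at 749 ± 285 CPM per kilobase in BM sorted, 566 ± 264 in BM nonsorted, 868 ± 1178 in BAC depleted and 3367 ± 841 in BAC nondepleted. In BM sorted the order continued with Alpl at 141 CPM per kilobase, Ibsp at 77.0, Sp7 at 38.2, Pth1r at 13.7 and Runx2 at 10.7, followed by Dmp1 at 0.701, Bglap at 0.618 and Phex at 0.431. In BAC depleted Ibsp came second at 139 ± 184, followed by Pth1r at 14.7 ± 3.56, Alpl at 8.99 ± 4.22, Runx2 at 7.71 ± 2.10 and Sp7 at 7.27 ± 6.08. The libraries of Alpl, Runx2 and Sp7 overlapped there, while those of Pth1r lay above those of Runx2. Exon lengths were those of GENCODE M21 on GRCm38 and may differ from the annotation the authors counted on.

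**Figure D1:**
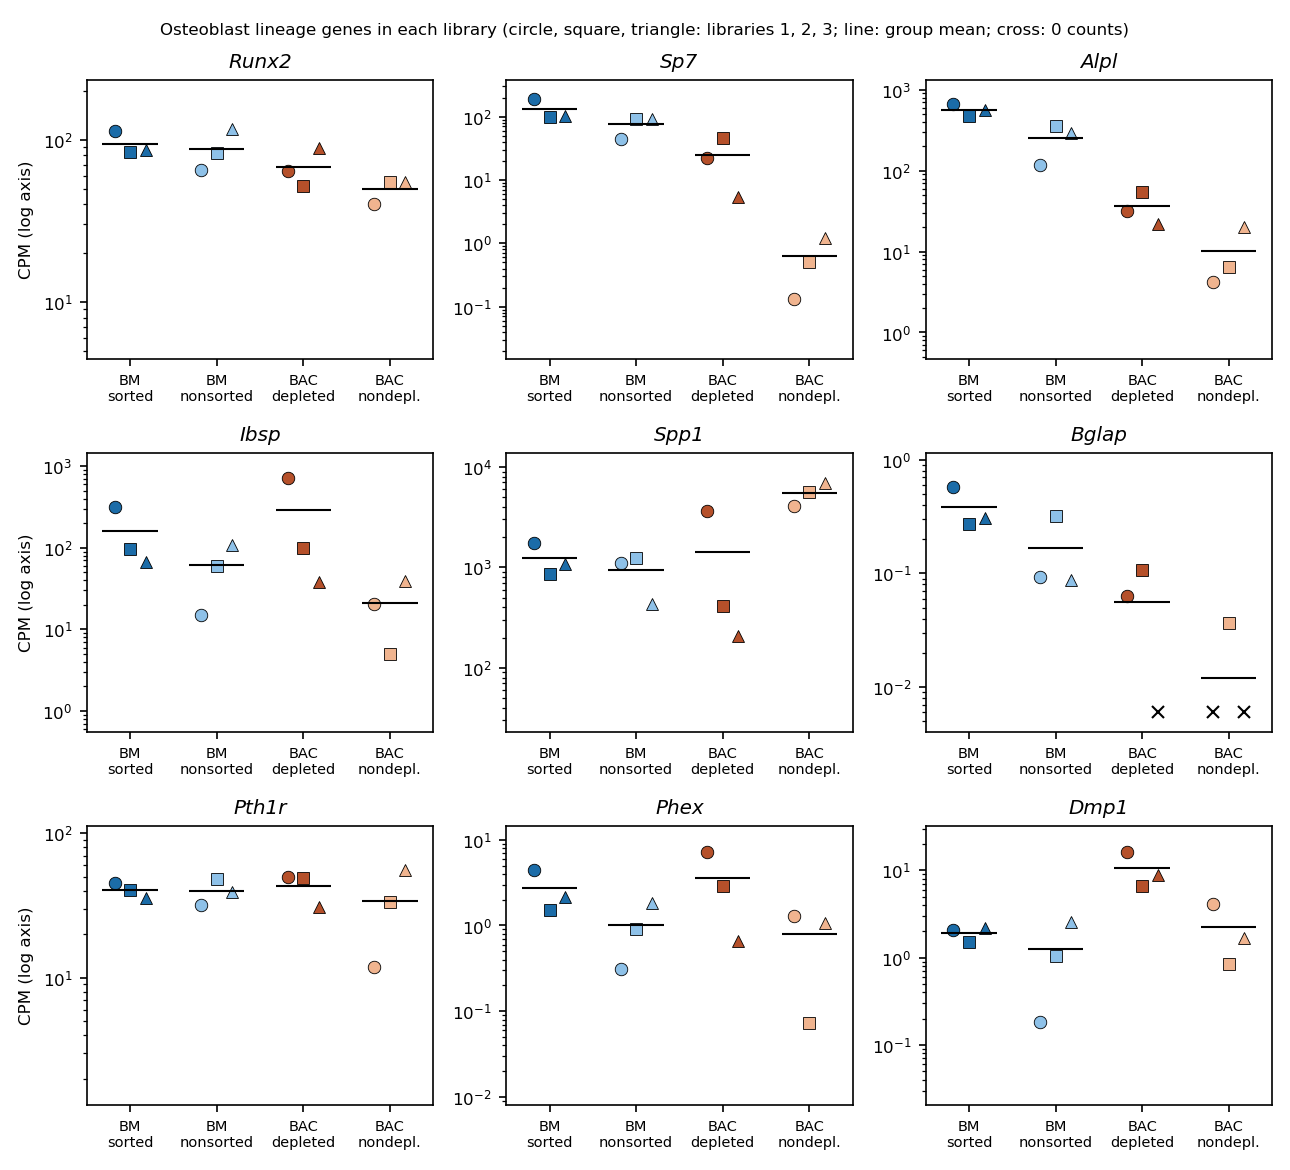
Level of each of the 9 genes in each library, in CPM on a log axis whose range differs between panels, with a line at the group mean and a cross for 0 counts. The group means of Sp7 and Alpl are lower from each group to the next, left to right, Spp1 is highest in the 3 BAC nondepleted libraries, and BAC depleted 1 lies far above its group in Ibsp and Spp1.

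Runx2 was present in every library, within a narrower range than Sp7 or Alpl. It stood at 112, 84.1 and 86.6 CPM in BM sorted 1 to 3, at 64.9, 82.8 and 117 in BM nonsorted, at 64.1, 52.0 and 88.4 in BAC depleted and at 40.0, 54.6 and 54.7 in BAC nondepleted. The highest and lowest group means were therefore 94.4 ± 15.7 and 49.8 ± 8.44 CPM, and the groups next to each other in that order overlapped.

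Sp7 spanned a far wider range over the libraries than Runx2. It stood at 189, 99.4 and 101 CPM in BM sorted, at 45.1, 91.0 and 91.9 in BM nonsorted, at 22.4, 46.4 and 5.29 in BAC depleted and at 0.134, 0.509 and 1.22 in BAC nondepleted. The BAC nondepleted libraries held 4, 14 and 32 counts of Sp7, the fewest of any group. The lowest BAC depleted library was still above the highest BAC nondepleted one. The BM nonsorted and BAC depleted libraries overlapped slightly.

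Alpl kept the same order of groups. Its level was 661, 478 and 565 CPM in the BM sorted libraries, 118, 357 and 291 in BM nonsorted, 31.4, 55.2 and 22.2 in BAC depleted and 4.23, 6.36 and 19.9 in BAC nondepleted. No 2 neighbouring groups in this order overlapped. Both marrow groups lay above all bone-associated libraries.

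The acidic matrix genes did not follow that order. Ibsp, whose product binds hydroxyapatite and cells, stood at 313, 96.8 and 67.8 CPM in the BM sorted libraries, 14.9, 59.7 and 110 in BM nonsorted, 725, 100 and 37.7 in BAC depleted and 20.2, 4.98 and 38.6 in BAC nondepleted. Groups next to each other overlapped, and BAC depleted 1 held 19.3 times the level of BAC depleted 3. Spp1, which encodes a secreted phosphoprotein of bone and of macrophages, stood at 1760, 853 and 1091 CPM in the BM sorted libraries, 1109, 1251 and 436 in BM nonsorted, 3669, 417 and 207 in BAC depleted and 4114, 5652 and 6879 in BAC nondepleted. All 3 BAC nondepleted libraries exceeded every other library, and BAC depleted 1 came next.

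The number of Spp1 counts per Ibsp count, a ratio taken after the values were seen, showed how the 2 genes parted. It was 5.06, 4.17 and 5.49 in BAC depleted 1 to 3, although the highest of these libraries held 19.3 times the Ibsp and 17.7 times the Spp1 level of the lowest. In BM sorted it was 5.62, 8.82 and 16.1, and in BM nonsorted 74.2, 21.0 and 3.98. In BAC nondepleted it reached 204, 1135 and 178. The summed level of 10 macrophage markers was far higher in the unpurified groups: from 7.08 to 9.07 CPM over the BM sorted libraries, 17.997 to 66.8 in BAC depleted, 3568 to 4271 in BM nonsorted and 9102 to 10318 in BAC nondepleted. The ratio did not follow that sum throughout. BM nonsorted 3 had a low ratio with 3568 CPM of the markers, BM sorted had higher ratios than BAC depleted with lower sums, and within BAC depleted the library with the highest sum had the lowest ratio. Among those markers Ptprc, which encodes CD45, was at 0 counts in all 3 BAC depleted libraries and at 237 ± 40.0 CPM in BAC nondepleted. The part of macrophage RNA in the Spp1 level was not tested. The 8 osteoclast markers summed to 52.3 to 80.3 CPM over all libraries, most of it from Ctsk (35.4 to 77.2 CPM), and Calcr, the calcitonin receptor, had 0 counts in 11 of the 12. Single osteoclast markers did differ: of 5 tested, 1 rose and 2 fell on depletion and 2 fell on sorting. Atp6v0d2, a proton pump subunit, fell from 3.73 to 0.0139 CPM on depletion and from 3.42 to 0.0204 on sorting. The part of osteoclast RNA was not tested either.

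**Figure D2:**
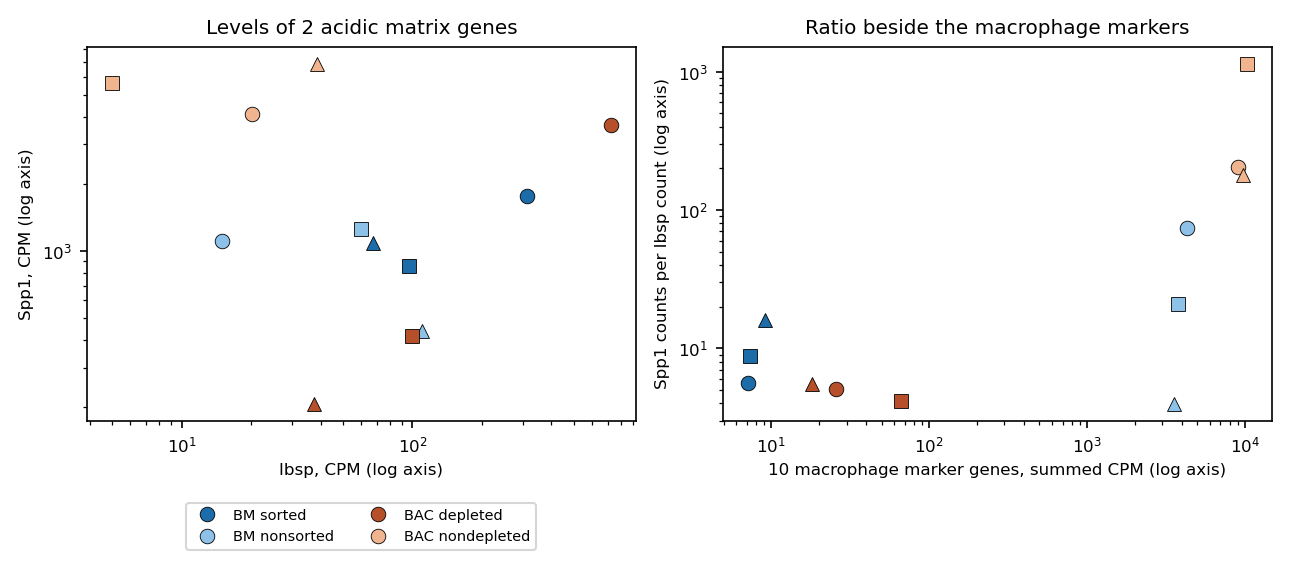
Left, Spp1 against Ibsp in CPM, both on log axes, 1 point per library (circle, square and triangle for libraries 1, 2 and 3). Right, Spp1 counts per Ibsp count against the summed CPM of 10 macrophage marker genes, on log axes: the ratio is 4.17 to 5.49 in BAC depleted and 178 to 1135 in BAC nondepleted.

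Bglap, the osteocalcin gene, was nearly undetected. It had 17, 9 and 10 counts in BM sorted, 3, 10 and 3 in BM nonsorted, 2, 3 and 0 in BAC depleted and 0, 1 and 0 in BAC nondepleted. A count of 0 allows up to 0.101 to 0.125 CPM in those libraries. Its near copies were scarce too. Bglap2, which passed the filter, held 33, 10 and 16 counts in BM sorted and 4, 19 and 10 in BM nonsorted. It held 16, 8 and 2 in BAC depleted and 0 in each BAC nondepleted library, and Bglap3 held at most 1. Reads can be split or lost between such copies, so each of the 3 is uncertain. Summed over libraries, Bglap was 6.29 times as high in BM sorted as in BAC depleted (95% counting interval 2.46 to 20.5) and 13.6 times as high in BM nonsorted as in BAC nondepleted (2.12 to 571), which covers counting error only. Without the low-count filter edgeR called Bglap higher in BM sorted than in BAC depleted (2.65, adjusted p = 0.0367). It did not call it between BM nonsorted and BAC nondepleted (3.34, 0.0703), on sorting (1.23, 0.779) or on depletion (1.93, 0.389). With the filter kept but BAC depleted 2 left out, Bglap was tested and called higher in BM sorted than in BAC depleted (3.29, adjusted p = 0.0264 by edgeR). No other difference of Bglap passed in a fit with 1 library left out.

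Pth1r, the receptor of parathyroid hormone, was the most even of the 9 genes between groups. It stood at 45.1, 40.2 and 35.4 CPM in the BM sorted libraries, 32.05, 47.97 and 39.4 in BM nonsorted, 49.4, 48.8 and 31.1 in BAC depleted and 11.8, 33.6 and 56.1 in BAC nondepleted. All groups overlapped, and BAC nondepleted 1 was the lowest library of the 12.

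Phex, a membrane endopeptidase that restrains phosphate loss, stood at 4.46, 1.53 and 2.14 CPM in the BM sorted libraries, 0.308, 0.922 and 1.84 in BM nonsorted, 7.22, 2.90 and 0.667 in BAC depleted and 1.28, 0.0727 and 1.07 in BAC nondepleted. Every group overlapped with its neighbour. Dmp1, an acidic matrix protein of osteocytes, stood at 2.08, 1.53 and 2.21 CPM in the BM sorted libraries, 0.185, 1.05 and 2.55 in BM nonsorted, 16.1, 6.68 and 8.96 in BAC depleted and 4.16, 0.836 and 1.68 in BAC nondepleted. All 3 BAC depleted libraries lay above the other 9, whose levels overlapped. Of 5 further genes listed for osteocytes only Pdpn was abundant, with group means of 32.3 to 128 CPM, and the other 4 were too low to test. Among these Sost, the Wnt inhibitor sclerostin, had 0 counts in 11 libraries.

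The first comparison asked whether flow sorting changed these genes in marrow cultures. Of the 8 genes tested 0 passed, with log2 fold changes from 0.01 ± 0.43 (SE) for Pth1r to 1.40 ± 0.99 for Phex. Alpl stood at 568 ± 91.2 against 256 ± 123 CPM (log2 fold change 1.15 ± 0.58, adjusted p = 0.41 by edgeR's quasi-likelihood test). Sp7 stood at 130 ± 51.5 against 76.0 ± 26.8 CPM (0.77 ± 0.69, adjusted p = 0.716 by the same test). For both, all 3 sorted libraries lay above the unsorted ones, and the share of all genes that part so was not counted. At an unadjusted p under 0.05, 0 of the 8 passed by edgeR and 1, Alpl, by DESeq2, which after adjustment called 0. Of all 15698 genes tested, 6.23% were called, 0.166% higher and 6.06% lower in BM sorted. The median log2 fold change was 0.69 for the 8 genes and 0.00 for all genes. The 10 macrophage markers fell together (10 of 10), from the summed levels given above.

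The next comparison put the same question to magnetic depletion in bone-associated cells. Sp7, Alpl, Ibsp and Dmp1 rose and none of the 8 fell, against 37.3% of all genes called, 17.4% higher and 19.9% lower. Sp7 rose 40.3-fold, from 0.621 ± 0.551 to 24.7 ± 20.7 CPM (log2 fold change 5.33 ± 0.89, adjusted p = 0.00128 by edgeR). Ibsp rose 13.5-fold, from 21.3 ± 16.9 to 288 ± 380 CPM (3.76 ± 1.25, 0.0386). Alpl rose 3.57-fold, from 10.2 ± 8.50 to 36.3 ± 17.0 CPM (1.84 ± 0.60, 0.0353), and Dmp1 rose 4.74-fold, from 2.22 ± 1.73 to 10.6 ± 4.93 CPM (2.25 ± 0.79, 0.0467). By the same edgeR test Runx2 (0.45 ± 0.25, adjusted p = 0.179), Pth1r (0.35 ± 0.43, 0.55), Phex (2.16 ± 1.02, 0.122) and Spp1 (-1.96 ± 0.90, 0.114) did not pass. The median log2 fold change was 1.997 for the 8 genes and 0.05 for all genes.

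These depletion results rested unevenly on single libraries. Sp7 stayed called with any of the 6 libraries left out, at log2 fold changes of 4.50 to 6.26. Without BAC depleted 1, the library with Xist, Ibsp stood at a log2 fold change of 1.699 (adjusted p = 0.217 by edgeR) Dmp1 at 1.81 (0.125) and Alpl at 1.94 (0.0519), all without a call, and Spp1 was lower by a log2 fold change of -4.15 and passed (0.000912). Ibsp also lost its call without BAC nondepleted 1 (0.104), 2 (0.109) or 3 (0.0545), Dmp1 without BAC depleted 3 (0.0611) or BAC nondepleted 2 (0.135) or 3 (0.125), and Alpl without BAC depleted 2 (0.105) or BAC nondepleted 1 (0.101) or 2 (0.115). A fit on these 6 libraries alone called Sp7 only. DESeq2 on all 12 libraries called 5 of the 8 genes: Sp7, Alpl, Ibsp and Dmp1, and also Spp1 (-1.95, adjusted p = 0.0364).

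**Figure D3:**
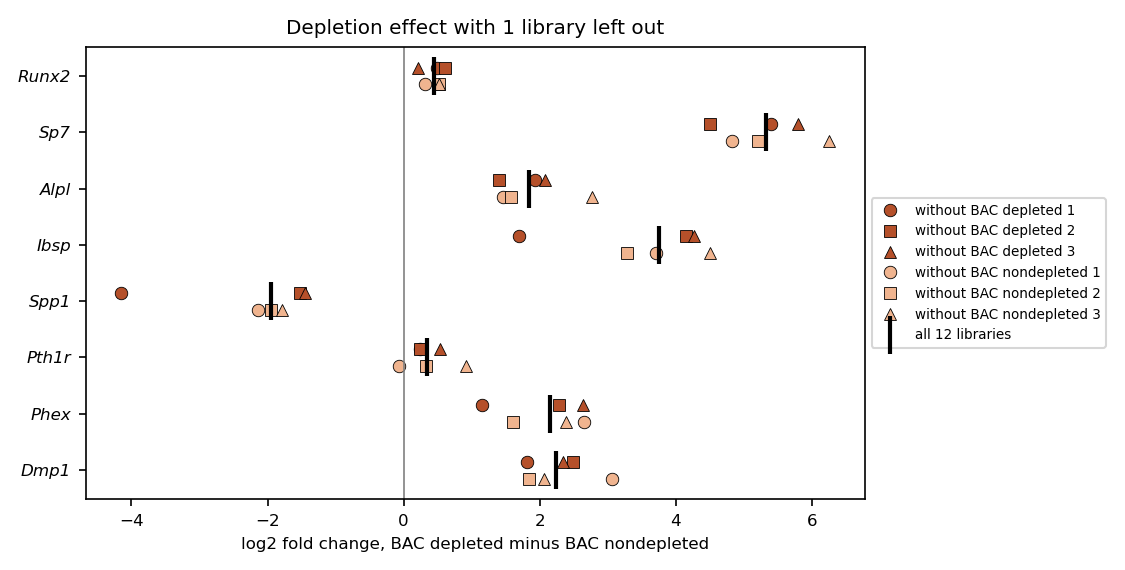
Log2 fold change of BAC depleted minus BAC nondepleted for the 8 tested genes, with all 12 libraries (bar) and with 1 library of the 2 groups left out (symbols). Sp7 stays between 4.50 and 6.26, while leaving out BAC depleted 1 moves Ibsp to 1.699 and Spp1 to -4.15.

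Markers of other cells changed with the depletion as well. All 10 macrophage markers fell. Of 9 tested cartilage markers 6 rose and 0 fell, and their summed level, for 10 markers, was 8692 to 30009 CPM in BAC depleted and 1322 to 4619 in BAC nondepleted. Hypertrophic chondrocytes are known to make Ibsp, Alpl and Pth1r. Col10a1, the collagen gene that defines them, stood at 10.02, 3.57 and 1.75 CPM in BAC depleted and at 2.55, 4.72 and 46.3 in BAC nondepleted, so the groups overlapped. BAC depleted 3 had the highest cartilage sum, the lowest Sp7, Ibsp, Spp1, Alpl, Pth1r and Phex and the highest Runx2 of its group, with Dmp1 in between. Of 5 tested adipocyte markers 3 rose and 0 fell, with sums for 6 markers of 42.5 to 841 CPM in BAC depleted and 234 to 264 in BAC nondepleted. Of 5 marrow reticular stroma markers 1, Cxcl12, rose, and their sums were 3875 to 17067 against 1099 to 1393 CPM. Of 3 tested endothelial markers 1 rose and 1 fell. The part of these cells in the results was not tested.

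Sorted marrow was compared with depleted bone-associated cells to see how the purified cells of both sites differ. Sp7 and Alpl were higher in marrow and Dmp1 was higher in bone-associated cells, 3 of 8 genes called against 47.4% of all genes (22.9% higher and 24.6% lower in BM sorted). Alpl stood 15.7-fold higher, at 568 ± 91.2 against 36.3 ± 17.0 CPM (3.97 ± 0.65, adjusted p = 0.000871 by edgeR), and stayed called without any 1 of the libraries. Sp7 stood 5.26-fold higher, at 130 ± 51.5 against 24.7 ± 20.7 CPM (2.39 ± 0.72, 0.0202), and lost its call without BAC depleted 1 (0.0525) or BM sorted 1 (0.0613), and also without the low-count filter and in a fit on these 6 libraries alone. Dmp1 stood 5.46-fold lower in marrow, at 1.94 ± 0.361 against 10.6 ± 4.93 CPM (-2.45 ± 0.79, 0.0277), and lost its call without BAC depleted 1 (0.0776) or BM sorted 1 (0.067), 2 (0.0892) or 3 (0.0725). Of the 13 alternative fits, those with a library left out included, 8 kept the Dmp1 call. Runx2 (0.47 ± 0.25, 0.148), Ibsp (-0.85 ± 1.13, 0.561), Spp1 (-0.21 ± 0.87, 0.866), Pth1r (-0.10 ± 0.43, 0.873) and Phex (-0.41 ± 0.96, 0.751) did not pass. Without BAC depleted 1, Ibsp (1.21), Phex (0.59) and Spp1 (1.98) turned direction, and Spp1 passed as higher in marrow (adjusted p = 0.0147 by edgeR). The median log2 fold change was -0.16 for the 8 genes and -0.02 for all genes. Of 9 tested cartilage markers 1 was higher and 6 lower in marrow, with sums of 1136 to 3983 CPM in BM sorted and 8692 to 30009 in BAC depleted. Of 10 macrophage markers 4 were lower. Their part in these results was not tested. Site, dissociation, sorting antigens and purification method change together here and cannot be told apart.

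The last comparison of groups set the unpurified preparations of both sites against each other. Runx2, Sp7 and Alpl were higher in BM nonsorted than in BAC nondepleted and none was called lower, 3 of 8 against 31.7% of all genes (14.9% higher and 16.8% lower). Sp7 stood 124-fold higher, at 76.0 ± 26.8 against 0.621 ± 0.551 CPM (6.95 ± 0.94, adjusted p = 0.00102 by edgeR), and Alpl 25.2-fold higher, at 256 ± 123 against 10.2 ± 8.50 CPM (4.65 ± 0.67, 0.00135). Both stayed called with any library left out. Runx2 stood 1.77-fold higher, at 88.1 ± 26.3 against 49.8 ± 8.44 CPM (0.82 ± 0.25, 0.031), and of the 6 libraries only BM nonsorted 1 could be left out with the call kept (0.0535 to 0.114 in the other 5 fits). Spp1 was lower in all 3 marrow libraries, at 932 ± 435 against 5549 ± 1386 CPM, but missed the threshold (-2.57 ± 0.92, 0.057). It passed by DESeq2 (adjusted p = 0.00465), in a fit on the 6 libraries alone (0.00635) and with the replicate number as a block (0.0453). The median log2 fold change was 0.59 for the 8 genes and -0.01 for all genes. The macrophage sum was 3568 to 4271 CPM in BM nonsorted and 9102 to 10318 in BAC nondepleted, where 9 of 10 markers were called lower in marrow. Of the tested markers of other cells, 1 of 9 for cartilage was higher and 2 lower in marrow, 1 of 5 for adipocytes was higher, and 2 of 3 for muscle were higher. Their part in the gaps was not tested.

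**Figure D4:**
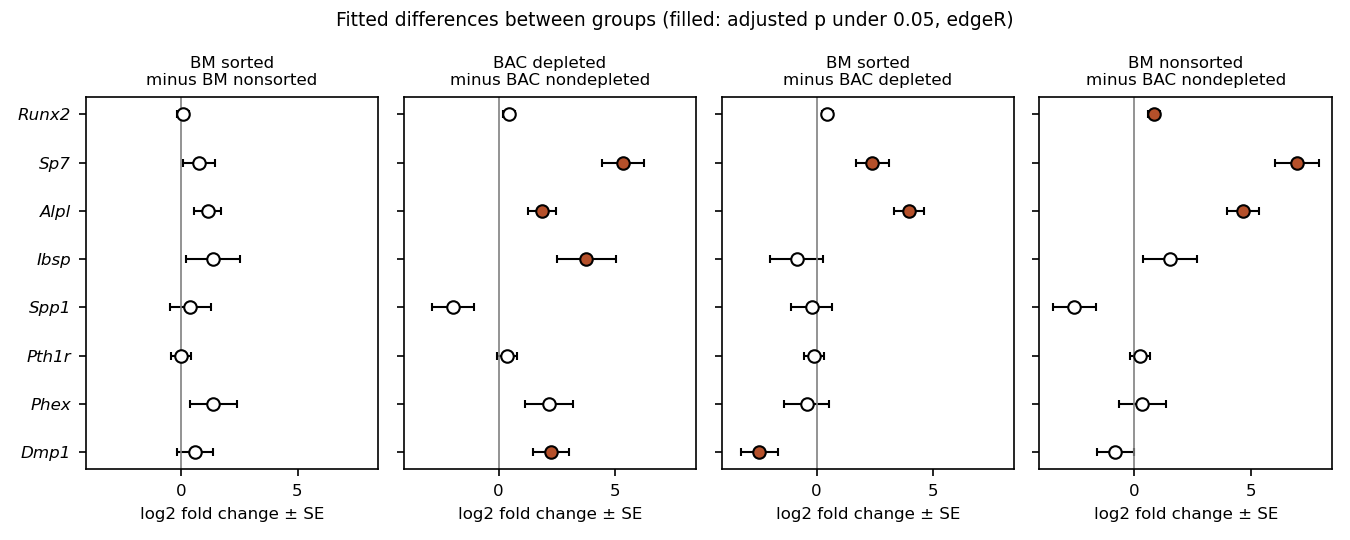
Fitted log2 fold change ± approximate SE of the 8 tested genes in the 4 comparisons of 2 groups, from 1 edgeR fit on all 12 libraries, with filled points at an adjusted p under 0.05. Sorting in marrow has no filled point, and Sp7 and Alpl are filled and to the right of 0 in the other 3 panels.

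The effect of purification itself was compared between the sites, as the marrow effect minus the bone effect. Sp7 was the 1 of 8 genes called, at -4.56 ± 1.10 on the log2 scale (adjusted p = 0.0345 by edgeR), with a marrow effect of 0.77 and a bone effect of 5.33. Of all genes 8.06% were called, 5.08% higher and 2.99% lower, and the median was -0.72 for the 8 genes and -0.06 for all genes. The Sp7 call was lost in 7 of the 12 fits that left out 1 library, at adjusted p of 0.0534 to 0.095, namely without BAC nondepleted 1 or 2, BM sorted 2 or 3 or BM nonsorted 1, 2 or 3. It was also lost with the replicate block (0.0744) and without the low-count filter (0.107). Without BAC depleted 1, edgeR called Spp1 as well (4.56, adjusted p = 0.00807), against 2.36 ± 1.25 with all libraries (0.271). These comparisons share libraries, so they are not independent of each other.

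Around the 9 genes, 34 further genes of the lineage were listed by role, of which 26 were tested. On depletion 8 rose and 2 fell (median log2 fold change 0.59), against 37.3% of all genes called, 17.4% higher and 19.9% lower. Among the regulators, Dlx3 and Dlx5, homeobox factors of skeletal progenitors, rose (2.99 ± 0.65, adjusted p = 0.00514 by edgeR, and 1.54 ± 0.40, 0.0136), and Cbfb, the partner subunit of Runx2, fell (-0.66 ± 0.13, 0.0027). Fgfr2, a fibroblast growth factor receptor, rose from 67.2 to 363 CPM (2.44 ± 0.48, 0.00309), and Lrp6, a Wnt co-receptor, from 364 to 754 CPM (1.05 ± 0.16, 0.000605). Omd, the matrix proteoglycan osteomodulin, rose from 229 to 909 CPM (1.99 ± 0.48, 0.00897), while Postn, the matrix protein periostin, fell from 5562 to 1114 CPM (-2.32 ± 0.71, 0.0265). Smpd3, a sphingomyelinase needed for mineralization, rose (3.42 ± 1.02, 0.0239) through 1 library, with 3049 counts in BAC depleted 2 against 293 and 166 in the other two. Bglap2 was called too (adjusted p = 0.0155 by edgeR), as it rose from 0 to 26 counts over the group on depletion. That is 8.65-fold if the 0 counts are taken as 3 for the whole group, without regard to counting error or spread between libraries. BAC depleted 3 lay at 0.0833 CPM, below the 0.101 to 0.114 CPM that a count of 0 allows in BAC nondepleted.
Some of these calls depended on a library. By edgeR, Dlx5 without BAC nondepleted 1 (adjusted p = 0.0531) or 2 (0.0505), Postn without BAC depleted 2 (0.0611) or 3 (0.0677) or BAC nondepleted 1 (log2 fold change -1.27, 0.124), and Smpd3 without BAC depleted 2 (log2 fold change 1.07, 0.15) or BAC nondepleted 1 (0.0772), 2 (0.079) or 3 (0.055) did not pass.

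Between the purified cells, 2 of the 26 were higher and 8 lower in marrow (median -0.27), against 22.9% and 24.6% of all genes. Cbfb was higher in marrow by a small margin (0.37 ± 0.13, adjusted p = 0.0338 by edgeR). Omd stood at 41.5 against 909 CPM (-4.45 ± 0.53, 0.000167) and Ogn, the proteoglycan osteoglycin, at 1135 against 10138 CPM (-3.16 ± 0.53, 0.000958). Twist1, a factor that holds Runx2 in check, stood at 12.9 against 41.0 CPM (-1.67 ± 0.22, 0.000288). Fam20c, the kinase that phosphorylates acidic matrix proteins, was lower in marrow (-1.56 ± 0.29, 0.00192), as were Lrp6 (-1.62 ± 0.16, 6.29e-05), Fgfr2 (-1.38 ± 0.46, 0.0306), Enpp1, which makes pyrophosphate (-0.67 ± 0.24, 0.0391), and Pdpn, a glycoprotein of early osteocytes (-1.98 ± 0.63, 0.0261). Omd, Ogn, Twist1, Fam20c and Lrp6 stayed called with any library left out. Without BAC depleted 3, Cbfb (0.0556), Fgfr2 (0.0792), Enpp1 (0.135) and Pdpn (-1.11, 0.124) did not pass, and the 10 calls over the list numbered 5. They numbered 6 without BM sorted 3, where Cbfb (0.087), Fgfr2 (0.109), Enpp1 (0.143) and Pdpn (0.0703) were lost. Calls were also lost without BAC depleted 2 (Cbfb 0.0887, Fgfr2 0.0574), BM sorted 1 (Cbfb 0.0883, Pdpn 0.0839), BM sorted 2 (Fgfr2 0.105, Enpp1 0.13, Pdpn 0.0546) and BAC depleted 1 (Enpp1 0.076).

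Between the unpurified cells, 5 of the 26 were higher and 6 lower in marrow (median -0.06), against 14.9% and 16.8% of all genes. Dlx6 (2.998 ± 0.96, adjusted p = 0.0381 by edgeR) and Dlx3 (2.15 ± 0.65, 0.03) were higher, with Smpd3 (3.24 ± 1.01, 0.0339) and Bglap2 (adjusted p = 0.0161, 9.36-fold with the 0 counts taken as 3). Twist1 (-2.16 ± 0.23, 0.000339), Omd (-2.77 ± 0.49, 0.00321), Enpp1 (-1.06 ± 0.24, 0.00902) and Lrp6 (-0.90 ± 0.16, 0.00277) were lower and stayed called with any library left out. Postn was lower too (-2.05 ± 0.70, 0.047), but moved to -0.99 without BAC nondepleted 1 (0.238) and was not called without BM nonsorted 1 (0.0853), 2 (0.146) or 3 (0.107). The call of Dlx6 was lost with any of the 6 libraries left out (0.0517 to 0.114), that of Smpd3 with any but BM nonsorted 2 (0.0641 to 0.106), and that of Dlx3 without BAC nondepleted 1 (0.107) or 3 (0.0923) or BM nonsorted 1 (0.0504) or 2 (0.11). The 11 calls numbered 5 without BAC nondepleted 1 or BM nonsorted 1, 6 without BM nonsorted 3 and 7 without BAC nondepleted 2 or BM nonsorted 2. Twist1, Omd, Enpp1 and Lrp6 were thus called lower in marrow both before and after purification. So was Ogn, named here after its values were seen (-1.86 ± 0.50, 0.0191). Its call between unpurified cells was lost without BAC nondepleted 1 (0.0661) or 2 (0.0543) or BM nonsorted 1 (0.0684) or 3 (0.0575). Both comparisons share no library, but they come from 1 fit with a shared estimate of spread. Between purified cells the call of Enpp1 depended on single libraries, as given above.

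On marrow sorting only Fam20c of the 26 passed, against 6.23% of all genes. It fell from 22.1 to 8.44 CPM (-1.39 ± 0.29, adjusted p = 0.0156 by edgeR), and the median over the list was 0.13. That call was lost without BM nonsorted 1 (0.0685), BM sorted 1 (0.0747) or BM sorted 2 (0.0618). Fam20c was also the 1 gene of the list whose purification effect differed between the sites (-1.73 ± 0.41, 0.032), against 8.06% of all genes. This call was kept in 4 of the 12 fits with 1 library left out.

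The genes most alike in pattern were found by the root mean square difference of log2 CPM over the 12 libraries, each gene centred on its own mean, among 13559 named genes. For Ibsp the nearest was Phex, at 0.67 log2 units, and then Slc2a4 (0.85). For Phex the nearest were Slc2a4 (0.65) and Ibsp. For Sp7 they were Hmgcll1 (0.79) and Kif26b (0.85), for Alpl Gper1 (0.54) and Hoxc12 (0.69), and for Spp1 Ciita (0.62) and Aqp1 (0.73). Dmp1 was nearest to Gpm6b (0.51) and Otogl (0.52), Runx2 to Slc25a47 (0.20) and Smtn (0.21), and Pth1r to Exoc3l (0.31) and Cnih2 (0.32). Levels were not matched, and some of these genes were low. Group means were 0.0966 to 0.546 CPM for Ciita, 0.179 to 1.19 for Otogl and 0.197 to 1.39 for Slc2a4. The libraries of a group share their preparation, and likeness within groups was not separated from likeness between them. Of the members of its gene cluster, Ibsp lay 1.58 log2 units from Dmp1, next to it in the genome, and 2.59 from Spp1, which lies beyond Mepe.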

How the data were processed

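RNA from 12 libraries in 4 groups of 3 was analysed, grouped by the labels. The deposited values are raw counts per gene, made by the authors with STAR 2.7.9a and featureCounts (Subread 2.0.1) on GRCm39, with MultiQC 1.7, per the submitters' processing notes. The sources used here name neither the annotation release nor the strand setting. Without strand, reads of Runx2 and Runx2os1 or of Pth1r and Myl3 cannot be told apart; these partners held at most 17 and 15 counts. Gm42793, which overlaps Spp1 on the same strand, held 1 to 235.

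Depth was 27937709 to 32164725 counts per library, so a count of 0 allows at most 0.125 CPM. In R 4.3.3, edgeR 4.0.16 was run on all 12 libraries in 1 fit with a mean per group (TMM, filterByExpr, robust quasi-likelihood F test). Benjamini-Hochberg adjustment ran over the 15698 genes tested, with calls at adjusted p under 0.05. The SE is the log2 fold change divided by the root of F and is approximate. The procedure was tested on simulated data with the same spread for every gene. That test does not cover genes as uneven between libraries as Ibsp or Spp1. Alternatives were DESeq2 1.42.0, other scalings and filters, a fit on the compared groups alone, a replicate block and leaving out each library.

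The 9 genes are named in every comparison. Of the further genes, at most 2 called in each direction per comparison and sublist are named, those with the largest fold changes, and Bglap2 and Bglap3 always. The values of 1 further gene are not reported here, though the counts over the list include it. Members and lists were chosen with earlier results of these data known. Intervals for low counts are exact conditional 95% intervals.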

Additional observations from a re-analysis of the deposited data

Results flagged for a closer look

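The effect of purification on Sp7 differed between the sites by a test of the difference itself, which is why it is listed here: the log2 effect in marrow minus that in bone was -4.56 ± 1.10 (SE), with an adjusted p of 0.0345 by edgeR's quasi-likelihood test. The fitted effect on Sp7 was 0.77 in marrow, which did not pass (adjusted p = 0.716 by the same test), and 5.33 in bone-associated cells (0.00128). The undepleted libraries held 4, 14 and 32 counts of Sp7, so the bone effect is measured against a low level. That level varied 9.085-fold in CPM between these libraries.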

How the results depend on the processing

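With all settings but the one named kept, the number of the 8 genes called after depletion was 4. It was 1 without the low-count filter, 1 in a fit on the compared groups alone and 2 with the replicate block, and 1 to 3 with 1 library left out. Between purified cells it was 3, and 1 to 4 with 1 library left out, the 4 including Bglap, which was tested without BAC depleted 2. For the difference of the purification effects it was 1, and 0 without the low-count filter, 0 with the replicate block and 0 to 2 with 1 library left out. The labels do not say whether the replicate numbers pair the libraries. Correlations of same-numbered deviations ran from -0.22 to 0.24, which with 3 libraries a group cannot settle it. With the block, Spp1 between purified cells turned from -0.21 to 0.35. Leaving out 1 library turned the direction of these uncalled differences. Between purified cells Ibsp ranged from -1.79 to 1.21, Phex from -0.96 to 0.59, Pth1r from -0.30 to 0.0051 and Spp1 from -0.73 to 1.98. Between unpurified cells Dmp1 ranged from -1.85 to 0.0066, Phex from -0.39 to 0.85 and Pth1r from -0.17 to 0.81. On sorting Pth1r ranged from -0.12 to 0.17 and Runx2 from -0.0811 to 0.35, and on depletion Pth1r from -0.0657 to 0.91. For the difference of effects Phex ranged from -1.31 to 0.25 and Pth1r from -0.90 to 0.0772. The cause was not tested. Over the 26 further genes, the 10 calls on depletion became 5 in a fit on the compared groups alone, and the 11 between unpurified cells became 7 without the low-count filter. The 1 call on sorting became 0 with the block. The 1 call for the difference of effects became 0 with the block and 4 by DESeq2. With 3 libraries a group, the spread between libraries and not the depth limits most of these values, though not those of Bglap. Sp7 in BAC nondepleted had few counts (4, 14 and 32) and a wide spread between libraries as well. Phex and Dmp1 also had few counts in some libraries, such as 2 of Phex in BAC nondepleted 2 and 6 of Dmp1 in BM nonsorted 1.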

Other observations

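In BM sorted, 1 library held the highest level of 8 of the 9 genes: BM sorted 1. The same library held the highest sums in its group of 6 adipocyte markers, at 1140 CPM against 361 and 496, and of 5 marrow reticular stroma markers, at 13306 CPM against 4367 and 4103. Its cartilage marker sum was the lowest of its group, at 1136 CPM against 3620 and 3983. These values were noticed after the data were seen, and how they relate to each other was not tested.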
